A study of Homo sapiens with 9 samples.

Results

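The 9 genes described here are CCDC80, CD44, THBS1, PLAU, PLAUR, PLAT, TIMP1, TIMP3 and SPARC, taken from 22465 genes measured on 9 arrays. They were read from the probe sets that the platform annotation gives to 1 of these symbols alone, using the brightest probe set of a gene, and all 9 were found. CCDC80, CD44 and THBS1 were chosen by their higher intensity at 60 nM okadaic acid than in untreated cells in these same data, so their values are a description with no test. The other 6 were named for their roles in the same system and are given with the test. They too were chosen with earlier results of these data known, so they were not picked blind to these values.

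RNA came from cells labelled SH-SY5Y, a human neuroblastoma line, grown as 3 groups of 3 arrays that the labels call biological replicates. One group was untreated, and the other two spent 12 h with okadaic acid (OA), at 20 nM and at 60 nM, all in medium with lowered serum. OA, a polyether toxin from marine dinoflagellates, blocks protein phosphatases such as PP2A and PP1. The treatment field of the 60 nM arrays says 20 nM, while their source name, their title code and the series design say 60 nM, and they were grouped as 60 nM. All cells are of 1 line. Nothing states that each replicate was a culture of its own, so a p-value reflects only how these arrays differ and that difference may be technical. Levels are log2 intensities, a value of 5.82 (the 95th percentile of 23 background probe sets) serves as the background level, and the number of arrays limits the precision. Each probe set pools the exons of a transcript cluster, so isoforms were not separated.

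Of 12 measured noradrenergic markers of the labelled cell type, 2 (GATA2 and GATA3) had a mean above background in untreated cells, and TH, DBH and PHOX2A were below it. Of 9 epithelial markers 4 were above it, the keratins KRT7, KRT8, KRT18 and KRT19. The summed intensity of the epithelial markers was 15010 to 19480 in untreated cells and 14220 to 15400 at 60 nM. That of the noradrenergic markers was 564 to 605.7 in untreated cells and 595.3 to 671.5 at 60 nM. None of 9 fibroblast markers, COL1A1, COL1A2, DCN and LUM among them, and none of 8 endothelial markers had a mean above background in any group. The summed intensity of the fibroblast markers was 187.8 to 198.5 at 60 nM and 184.9 to 190 in untreated cells. Of 9 leukocyte markers only CD68, which encodes a lysosomal protein that other cells also make, was above background, and it was higher at 60 nM by 1.88 on the log2 scale. The summed leukocyte markers were 723.1 to 820.4 at 60 nM and 287.5 to 341.1 in untreated cells, and their part in the results was not tested. In bulk RNA, more cells with a transcript and more transcript per cell cannot be told apart.

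The extracellular matrix is cut and rebuilt by secreted and surface-bound proteases. Urokinase (PLAU), held at the surface by its receptor (PLAUR), and tissue plasminogen activator (PLAT) turn plasminogen into plasmin, which cuts matrix and activates matrix metalloproteinases, and TIMP proteins block those metalloproteinases. CD44 is the main surface receptor for hyaluronan, and thrombospondin 1 (THBS1) and SPARC are secreted proteins that modify how cells hold on to matrix. In neuroblastoma, substrate-adherent cells make more of such proteins than neuroblast-like cells.

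At 60 nM OA the matrix protein gene CCDC80, the metalloproteinase inhibitor gene TIMP3, CD44, the urokinase receptor gene PLAUR and THBS1 all lay above their untreated levels, with no overlap between the arrays, as did PLAT and 14.2% of all genes. Their order by size ran from CCDC80, with a log2 difference of 5.03, through TIMP3 (3.14), CD44 (1.04) and PLAUR (0.95) to THBS1 (0.51). PLAT was higher by 0.29, a call that many alternatives ended. TIMP1 and SPARC overlapped between the groups, and PLAU was below background throughout. Of the 6 genes named by role, 3 rose at 60 nM (TIMP3, PLAUR and PLAT) and none fell, by limma's test with Benjamini-Hochberg adjustment over all genes at a threshold of 0.05. Of all genes tested 7.94% were called higher and 13.2% lower, and 14.9% were called higher among the 10062 genes with a group mean above background.

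**Figure D1:**
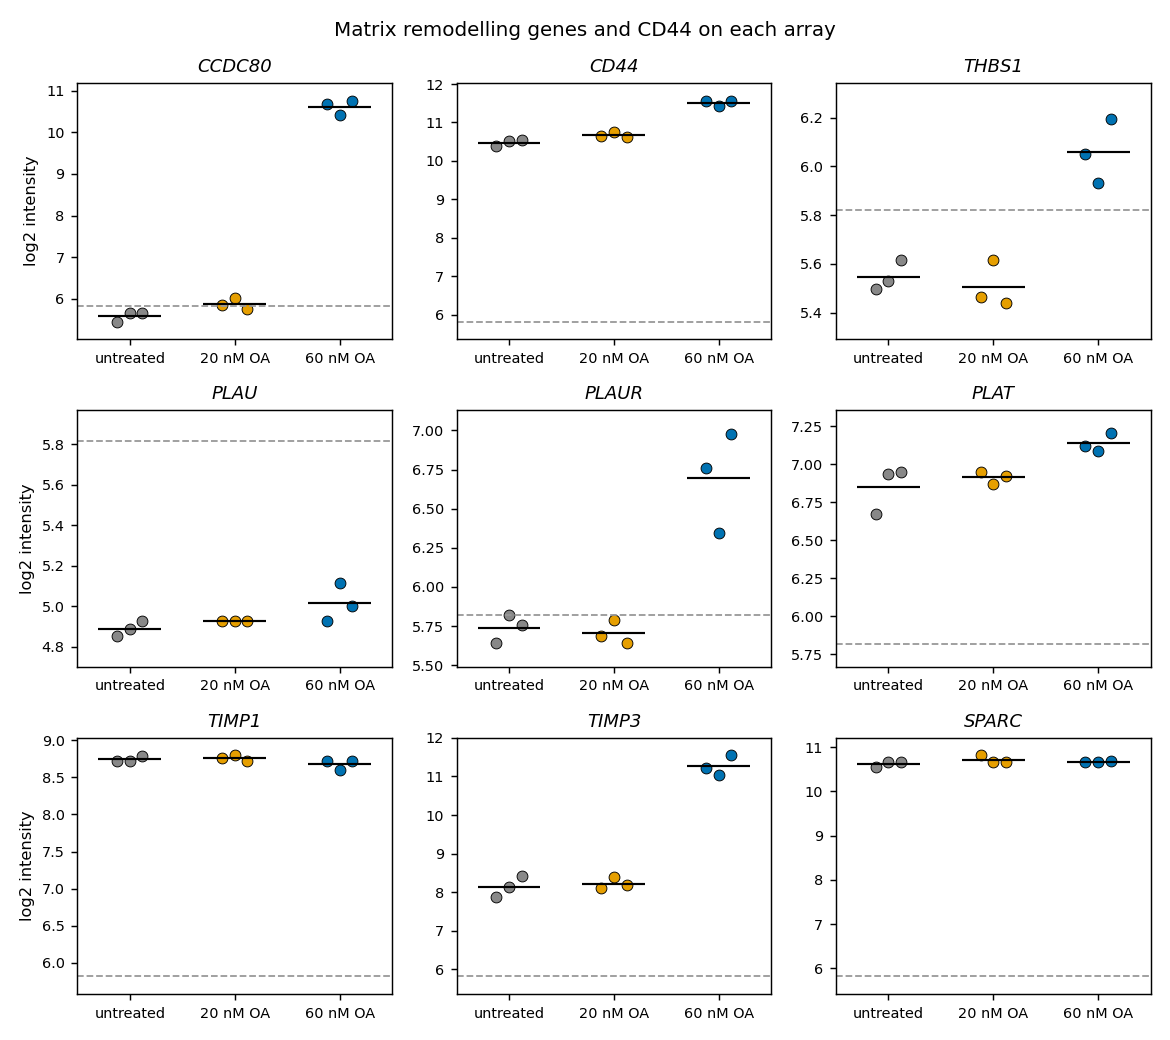
Log2 intensity of the 9 genes on each array (points, 3 per group) with the group mean (line), in untreated cells and at 20 nM and 60 nM OA. The dashed line is the background level of 5.82, and each panel has its own vertical scale. CCDC80 and TIMP3 stand far above the other groups at 60 nM, with means of 10.62 and 11.28, while TIMP1 and SPARC stay within narrow ranges.

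CCDC80 encodes a secreted matrix-associated protein that was studied in adipose tissue and as a gene that oncogenes lower in culture. Its levels were 5.46, 5.65 and 5.66 in untreated cells, 5.85, 6.01 and 5.77 at 20 nM and 10.69, 10.41 and 10.76 at 60 nM. All untreated arrays were below background, 2 of the 3 arrays at 20 nM were above it, and the arrays at 60 nM were far above. The 60 nM mean was 10.62 ± 0.19 and the untreated mean 5.59 ± 0.12 (SD, n = 3 each), a log2 difference of 5.03 (SE 0.11). Since the untreated level is only a bound, the gene was at least 27.9-fold higher at 60 nM, where the bound sets each untreated array to the background level. It ranked 3rd of 22465 genes by its difference. The difference at 20 nM against untreated was 0.29 (SE 0.11), with no overlap between those arrays.

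The pattern of CCDC80 over the 9 arrays was most like those of GABRQ, a GABA receptor subunit gene, JUNB, an AP-1 transcription factor gene, and ATP1B2, a sodium pump subunit gene. After each gene was centred on its mean, the root mean square difference from CCDC80 was 0.0808, 0.124 and 0.169 on the log2 scale for these 3. Values were not scaled, so this measure favours genes with a like size of difference at 60 nM, here 5.00, 5.02 and 5.15. The same measure was used for CD44 and THBS1. All 3 had untreated means below background, as CCDC80 did. SRPX and SRPX2, related to CCDC80 by a shared protein domain, were measured too, and neither passed the test at 60 nM.

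TIMP3 encodes the inhibitor of metalloproteinases that, unlike the other TIMPs, stays bound to the matrix. Its levels were 7.87, 8.13 and 8.41 in untreated cells, 8.10, 8.38 and 8.18 at 20 nM and 11.23, 11.05 and 11.55 at 60 nM. The untreated and 20 nM arrays overlapped, and the lowest array at 60 nM was above them all. TIMP3 rose 8.79-fold at 60 nM against untreated (log2 difference 3.14, SE 0.17, limma adjusted p = 3.86e-05, 95% interval of the fold 6.63 to 11.7), the 21st largest difference of 22465. It also rose at 60 nM against 20 nM (3.05, SE 0.17, adjusted p = 7.11e-05). At 20 nM against untreated the difference was 0.08 (SE 0.17, adjusted p = 1), with an interval of the fold from 0.798 to 1.40. TIMP3 lies inside the synapsin gene SYN3 in RefSeq, and SYN3, looked up after the values of TIMP3 were seen, was below background in all groups (4.16 at 60 nM and 4.16 in untreated cells). The same holds for SYN1, which contains TIMP1, at 4.16 at 60 nM and 4.18 in untreated cells.

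TIMP1, a soluble inhibitor of metalloproteinases, had levels of 8.72, 8.72 and 8.79 in untreated cells, 8.76, 8.80 and 8.72 at 20 nM and 8.72, 8.60 and 8.71 at 60 nM. The 3 groups overlapped. The difference at 60 nM against untreated was -0.07 (SE 0.04, adjusted p = 0.355), with an interval of the fold from 0.892 to 1.02. In 4 of the 9 arrays the value was the same to 4 decimals, as in SPARC. Such repeats, which 12364 of 22465 genes show on 3 or more arrays, can make the SE too small.

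**Figure D2:**
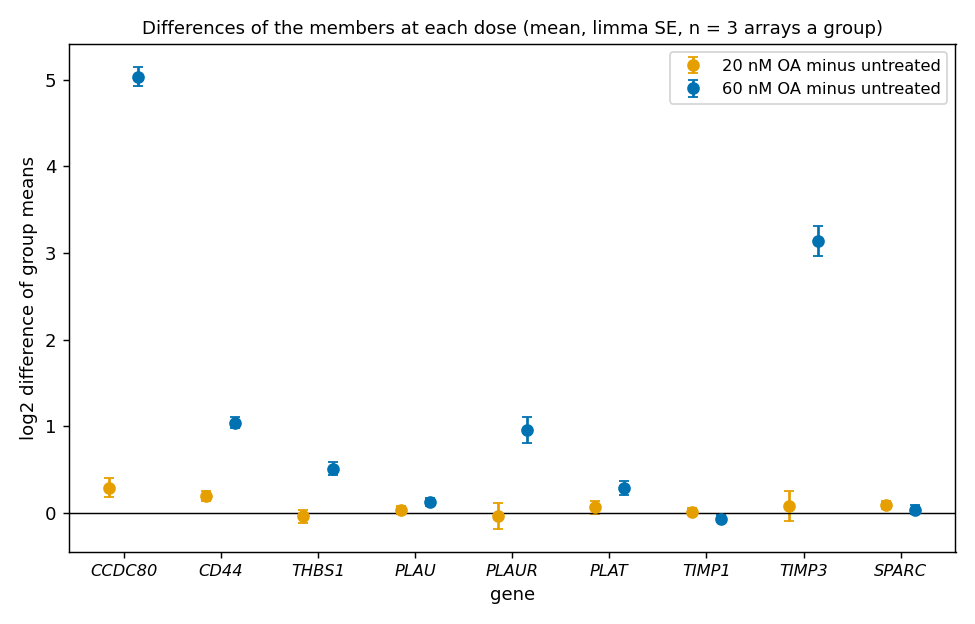
Log2 difference of the group means for each of the 9 genes, at 20 nM OA minus untreated (orange) and 60 nM OA minus untreated (blue). Bars are the SE of the limma fit with 3 arrays a group. The 20 nM differences run from -0.04 for THBS1 to 0.29 for CCDC80, and the 60 nM differences from -0.07 for TIMP1 to 5.03 for CCDC80.

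CD44 was bright in every group. Its levels were 10.38, 10.51 and 10.54 in untreated cells, 10.64, 10.76 and 10.61 at 20 nM and 11.55, 11.42 and 11.57 at 60 nM. The groups formed 3 separate steps without overlap. The mean was 11.51 ± 0.08 at 60 nM and 10.48 ± 0.09 in untreated cells (SD, n = 3 each), a log2 difference of 1.04 (SE 0.06) or 2.05-fold, and 10.67 ± 0.08 at 20 nM, 0.19 (SE 0.06) above untreated. A second probe set of CD44 was dim, at 5.94, 5.48 and 5.95 in untreated cells, 5.45, 6.02 and 5.44 at 20 nM and 7.26, 7.66 and 7.62 at 60 nM. It showed a larger difference at 60 nM against untreated, 1.72 (SE 0.21), and at 20 nM its difference was -0.16 (SE 0.21) with overlapping arrays, so the step at 20 nM was seen in the bright probe set alone. Over the 9 arrays the pattern of CD44 was most like those of ZFP36L2 (root mean square difference 0.0419 on the log2 scale), which encodes an RNA-binding protein, of UPP1 (0.0471), a uridine phosphorylase gene, and of EPHA2 (0.0499), an ephrin receptor gene.

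The stretches upstream of the start sites of CCDC80, TIMP3, CD44 and PLAUR are shown because these genes had the 4 largest differences among the 9. They are the 250 bases before the RefSeq start in GRCh38.p14, read on each gene's own strand, at chr3:112641144-112641393 (minus strand), chr22:32801455-32801704 (plus), chr11:35138921-35139170 (plus) and chr19:43670170-43670419 (minus). Capitals mark the AP-1 letters TGANTCA and the GC box letters GGGCGG on either strand, which did not overlap each other.
CCDC80: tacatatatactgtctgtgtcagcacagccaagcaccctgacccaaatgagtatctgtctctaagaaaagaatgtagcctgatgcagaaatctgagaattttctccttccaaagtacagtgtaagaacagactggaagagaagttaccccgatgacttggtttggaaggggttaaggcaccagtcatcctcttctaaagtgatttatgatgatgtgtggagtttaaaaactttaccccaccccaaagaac
TIMP3: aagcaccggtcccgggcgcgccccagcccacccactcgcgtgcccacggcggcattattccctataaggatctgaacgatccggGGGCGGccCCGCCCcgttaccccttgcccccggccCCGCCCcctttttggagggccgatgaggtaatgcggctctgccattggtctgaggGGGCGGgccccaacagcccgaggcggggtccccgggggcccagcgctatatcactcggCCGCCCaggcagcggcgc
CD44: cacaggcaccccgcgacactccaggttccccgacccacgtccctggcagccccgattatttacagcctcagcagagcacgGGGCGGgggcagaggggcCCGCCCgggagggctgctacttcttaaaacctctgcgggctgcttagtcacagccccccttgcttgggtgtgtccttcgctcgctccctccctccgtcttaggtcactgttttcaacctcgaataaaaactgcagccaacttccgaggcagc
PLAUR: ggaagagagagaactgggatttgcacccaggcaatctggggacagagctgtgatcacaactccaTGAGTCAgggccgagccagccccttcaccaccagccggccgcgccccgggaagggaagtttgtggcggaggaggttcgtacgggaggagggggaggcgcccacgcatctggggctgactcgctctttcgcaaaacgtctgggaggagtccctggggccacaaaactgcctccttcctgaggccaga
The 4 stretches are unlike in composition. That of CCDC80 has 42% G and C and neither motif, and that of TIMP3 has 72.4% G and C and 5 GC boxes. That of CD44 has 62.4% and 2 GC boxes, and that of PLAUR has 63.2% and the only AP-1 match, TGAGTCA, which begins at position -186 from the start site. Over windows of 300 bases, which add 50 bases past the start, an AP-1 match was found in 1 of 9 windows of 8 of the genes, against 7.71% of 35116 RefSeq windows, and a GC box in 5 of 9, against 45% of them. PLAU has 2 of the 9 windows, and PLAT is not among them. The cAMP response letters TGACGTCA, the TATA letters TATAAA and the CArG box were in none of the 9 windows, and the TEAD letters GGAATG were in those of THBS1 and SPARC, against 14% of all windows. A match describes these letters and does not show a bound site.

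Of the plasminogen activators and their receptor, the receptor PLAUR had the largest difference at 60 nM. PLAUR had levels of 5.64, 5.82 and 5.76 in untreated cells, 5.69, 5.79 and 5.64 at 20 nM and 6.76, 6.34 and 6.98 at 60 nM. All 60 nM arrays were above background and above every other array, while 1 untreated array just passed the background level and none did at 20 nM. PLAUR rose by a log2 difference of 0.95 at 60 nM against untreated (SE 0.15, limma adjusted p = 0.00357), and against 20 nM it was at least 1.83-fold higher (measured difference 0.99, SE 0.15, adjusted p = 0.004). At 20 nM against untreated the difference was -0.03 (SE 0.15, adjusted p = 1), between levels at or below background.

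PLAU, the urokinase gene, had levels of 4.85, 4.89 and 4.93 in untreated cells, 4.93 on all 3 arrays at 20 nM, and 4.93, 5.11 and 5.00 at 60 nM. All 9 arrays were below background, 5 of them at a single value, so no fold is given. The limma adjusted p at 60 nM against untreated was 0.111. At 60 nM the transcript of the receptor was above background and that of its ligand was not.

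PLAT had levels of 6.67, 6.94 and 6.95 in untreated cells, 6.95, 6.87 and 6.93 at 20 nM and 7.12, 7.09 and 7.21 at 60 nM. The 60 nM arrays were above all others, and untreated replicate 1 was below the rest. PLAT rose 1.22-fold at 60 nM against untreated (log2 difference 0.29, SE 0.08, adjusted p = 0.0354, 95% interval of the fold 1.08 to 1.38). That call ended in 10 of 20 alternatives. Among them were a fit with the replicate number as a block (adjusted p = 0.0638) and the fit of these 6 arrays alone (0.112), each fit without 1 of the 60 nM arrays (0.0676 to 0.117) and each without 1 of the 20 nM arrays (0.0567 to 0.0632). At 60 nM against 20 nM the difference was 0.22 (SE 0.08, adjusted p = 0.0955). That comparison passed in the fit of its 6 arrays (adjusted p = 0.0203), without untreated replicate 1 (0.00934) and with a chromosome score as covariate (0.0321), and its difference turned to -0.06 once the hybridisation controls were set equal (0.802). At 20 nM against untreated the difference was 0.06 (SE 0.08, adjusted p = 1).

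Of 11 measured genes of the wider plasminogen list, 3 were called higher at 60 nM and 2 lower. PLAUR and PLAT are among the 3, and of the 8 genes not described above 1 was called higher and 2 lower. Over all genes 7.94% were called higher and 13.2% lower. The list median was 0.00 beside 0.00 over all genes. SERPINE2, which encodes the protease inhibitor nexin 1, rose most. Its levels were 6.26, 6.39 and 6.49 in untreated cells, 6.68, 6.59 and 6.53 at 20 nM and 8.52, 8.43 and 8.67 at 60 nM. It was 4.48-fold higher at 60 nM than in untreated cells (log2 difference 2.16, SE 0.08, limma adjusted p = 8.40e-06). LRP1, the endocytic receptor that clears protease and inhibitor complexes, was called lower (adjusted p = 0.0151), at 5.60 ± 0.01 at 60 nM and 5.83 ± 0.11 untreated (SD, n = 3 each), a level at background. That call ended in 4 of 20 alternatives. The plasminogen receptor gene PLGRKT was called lower (adjusted p = 0.0187) at levels below background, and that call ended in 7 of 19.

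THBS1, a trimeric matrix protein that binds CD47, CD36 and integrins, was dim. Its levels were 5.50, 5.53 and 5.62 in untreated cells, 5.46, 5.62 and 5.44 at 20 nM and 6.05, 5.93 and 6.19 at 60 nM. The untreated and 20 nM arrays were all below background and overlapped, and the 3 arrays at 60 nM were above it. The log2 difference at 60 nM against untreated was 0.51 (SE 0.08), and with the untreated arrays set to background THBS1 was at least 1.18-fold higher. Its pattern was most like those of the sialidase gene NEU3 (0.0483), the polycystin gene PKD1 (0.0489) and the kinesin gene KIF3C (0.0551), the values being root mean square differences on the log2 scale. SPARC, a collagen-binding matricellular protein, was bright and had levels of 10.56, 10.66 and 10.66 in untreated cells, 10.82, 10.66 and 10.67 at 20 nM and 10.66, 10.66 and 10.68 at 60 nM. The groups overlapped, and the difference at 60 nM against untreated was 0.04 (SE 0.05, adjusted p = 0.714, 95% interval of the fold 0.950 to 1.11).

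Among the receptors of THBS1, 2 of 11 rose at 60 nM and 1 fell, with a list median of 0.00. Over all genes 7.94% were called higher and 13.2% lower. CD47, a surface receptor of THBS1 and a signal against uptake by macrophages, had levels of 9.72, 9.69 and 9.71 in untreated cells, 9.42, 9.63 and 9.46 at 20 nM and 8.82, 8.71 and 8.81 at 60 nM. The groups did not overlap, and CD47 fell at 60 nM against untreated (-0.93, SE 0.06, limma adjusted p = 5.46e-05). The heparan sulphate proteoglycan gene SDC4 rose by 1.55 (SE 0.13, adjusted p = 0.000233), at 12.66 ± 0.19 at 60 nM and 11.11 ± 0.23 untreated. The laminin-binding integrin gene ITGA6 rose by 1.29 (SE 0.11, adjusted p = 0.000199), at 9.15 ± 0.03 at 60 nM and 7.86 ± 0.19 untreated, and was the only one of 25 integrin genes called. Of 24 other matricellular genes measured besides THBS1 and SPARC, SMOC1, a relative of SPARC, rose by 1.08 (SE 0.10, adjusted p = 0.00028), and CCN1 fell by 0.53 (SE 0.13, adjusted p = 0.0238), a call lost in 8 of 20 alternatives.

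**Figure D3:**
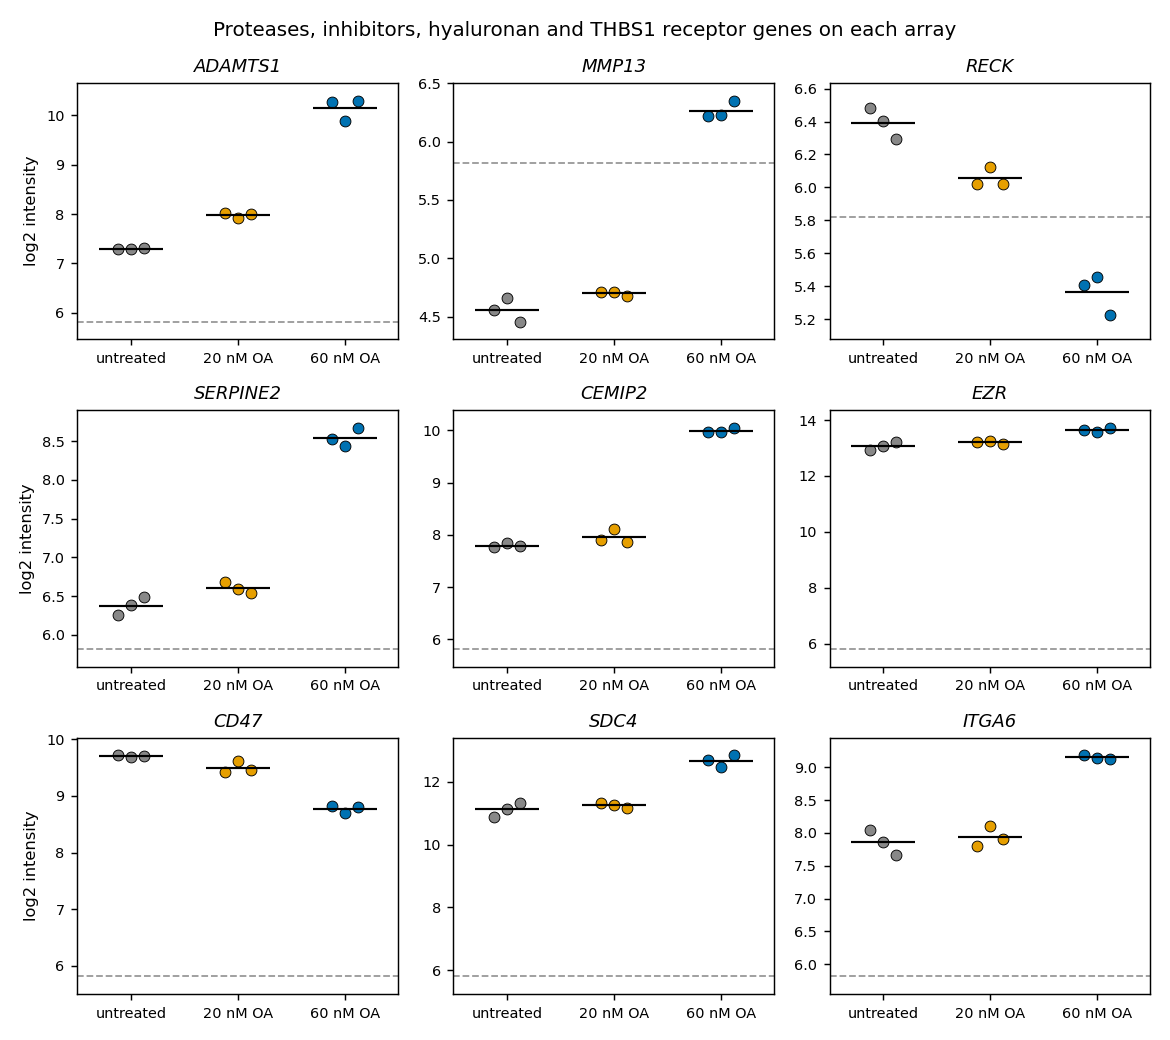
Log2 intensity on each array (points, 3 per group) with the group mean (line) for 9 genes of proteases, their inhibitors, hyaluronan handling and THBS1 receptors. The dashed line is the background level, and each panel has its own vertical scale. ADAMTS1 has means of 7.30 in untreated cells, 7.98 at 20 nM and 10.15 at 60 nM, and RECK lies below the background level at 60 nM.

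Metalloproteinase genes were mostly dim, and their list was not limited to proteases that TIMP3 can block. Of 47 metalloproteinase genes measured, 12 had a group mean above background. At 60 nM 11 of the 47 were called higher, 4 of them above background, and 1, ADAMTS2, lower at levels below background. Of all genes 7.94% were called higher and 13.2% lower, and 14.9% higher among those above background. The list median was 0.01 beside 0.00 for all genes. ADAMTS1, which cuts aggrecan and versican, had levels of 7.29, 7.28 and 7.32 in untreated cells, between 7.92 and 8.02 at 20 nM and 10.28, 9.88 and 10.30 at 60 nM. Its groups did not overlap, and it rose 7.24-fold at 60 nM against untreated (log2 difference 2.86, SE 0.11, limma adjusted p = 8.26e-06). At 20 nM against untreated its difference was 0.68 (SE 0.11), which did not pass (adjusted p = 0.199). The collagenase gene MMP13 rose to 6.26 ± 0.08 at 60 nM, against 4.56 ± 0.10 in untreated cells (SD, n = 3 each, adjusted p = 5.71e-06), and since the untreated arrays were below background it was at least 1.36-fold higher. The other two above background were named after their values were seen. MMP16, a membrane-bound metalloproteinase gene, was at 6.10 ± 0.26 at 60 nM, with 2 of 3 arrays above background, and at 5.18 ± 0.23 in untreated cells, with none above it (SD, n = 3 each). It was at least 1.21-fold higher at 60 nM (adjusted p = 0.00644). ADAM10, which encodes a sheddase that cuts CD44, was higher by 0.91 (SE 0.26, adjusted p = 0.0490), and that call ended in 12 of 20 alternatives. ADAMTS20 was called higher at levels below background. RECK, a membrane-anchored inhibitor of metalloproteinases, was lower where TIMP3 was higher. Its levels were 6.49, 6.40 and 6.29 in untreated cells, 6.02, 6.13 and 6.02 at 20 nM and 5.40, 5.46 and 5.23 at 60 nM. All 60 nM arrays were below background, so it was at least 1.49-fold lower at 60 nM than in untreated cells (measured difference -1.03, SE 0.07, adjusted p = 0.000102).

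Around CD44, 3 of 18 other measured genes of hyaluronan synthesis, breakdown and binding were called higher at 60 nM and 1 lower. The shares of all genes were 7.94% called higher and 13.2% lower. The list median with CD44 included was 0.05. CEMIP2, a transmembrane protein linked to hyaluronan breakdown, had levels of 7.76, 7.84 and 7.78 in untreated cells, 7.91, 8.11 and 7.86 at 20 nM and 9.97, 9.96 and 10.05 at 60 nM. It was 4.59-fold higher at 60 nM than in untreated cells (log2 difference 2.20, SE 0.06, limma adjusted p = 3.63e-06). EZR, or ezrin, which ties the tail of CD44 to actin, rose by 0.57 (SE 0.08, adjusted p = 0.00171), and ESRP2, a splicing factor that sets which variant exons of CD44 are kept, fell by 0.81 (SE 0.10, adjusted p = 0.00149). CEMIP, the third called higher, was named after its value was seen and stayed below background.

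Among structural genes of the matrix more fell than rose, as over all genes, where 13.2% were called lower and 7.94% higher. Of 41 measured genes of collagens, basement membrane and elastic fibres 11 fell at 60 nM and 1 rose, with a list median of -0.02. Of the 16 above background 8 fell and 1 rose. Among all genes above background 26.1% were called lower and 14.9% higher. LOXL1, which links elastin, fell by 1.38 (SE 0.14, limma adjusted p = 0.000483), at 7.58 ± 0.09 at 60 nM and 8.96 ± 0.31 untreated. FBN1, or fibrillin 1, fell by 0.58 (SE 0.06, adjusted p = 0.000775), and LAMB2, a laminin chain gene, by 0.49 (SE 0.05, adjusted p = 0.000537). The 1 that rose, named after its value was seen, was the fibronectin gene FN1 (0.52, SE 0.09, adjusted p = 0.00623).

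**Figure D4:**
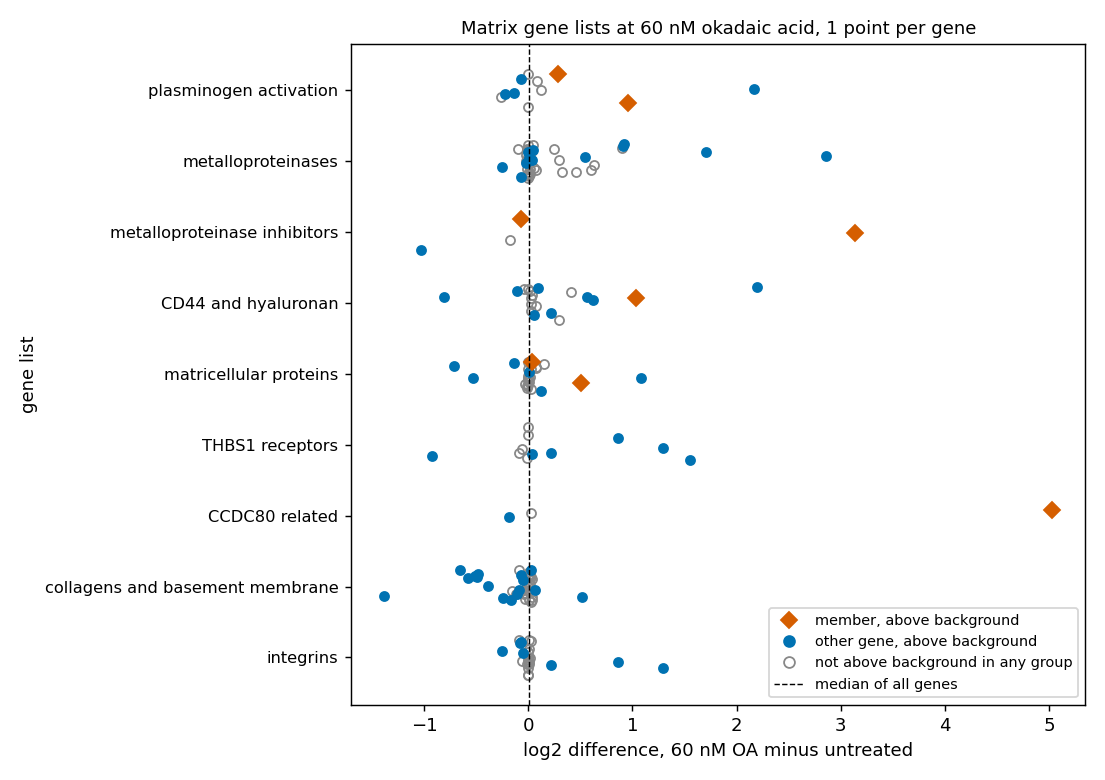
Log2 difference at 60 nM OA minus untreated, 1 point per gene, for the 9 gene lists. Diamonds are the 9 genes described here where above background, filled circles other genes above background, open circles genes not above background in any group, and the dashed line is the median of all genes (0.00). Most genes of the larger lists lie near the line, with CCDC80, TIMP3, ADAMTS1, CEMIP2 and SERPINE2 far to its right and LOXL1 and RECK to its left.

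At 20 nM against untreated, 0 of the 6 genes named by role passed limma's test, and 0 had an unadjusted p under 0.05. Over all genes 5 passed, or 0.0223%. CCDC80 and CD44 lay above untreated with no overlap, and 2.57% of all genes were higher in that way. The hybridisation controls, spiked into each sample before hybridisation, averaged 9.42 ± 0.23 at 20 nM and 9.71 ± 0.17 untreated (SD, n = 3 each, exact two-sided permutation p = 0.3). A shift that sets these controls equal would raise every difference at 20 nM against untreated by 0.29, which would give 0.58 for CCDC80 and 0.49 for CD44, and their part in these values was not tested. At 60 nM against 20 nM, where 6.94% of all genes were called higher, 2 of the 6 rose (TIMP3 and PLAUR). The comparisons share arrays and are not independent of each other.

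The order of the arrays within a group was alike for many of the 9 genes. Untreated replicate 1 was the lowest of its group, or tied for it, in 9 of 9 genes, and 60 nM replicate 2 in 8 of 9, PLAU being the exception. The share of all genes with this order was not computed. Whether the order is particular to these 9 or common to the whole array is therefore not known. On 60 nM replicate 2 the array median was 4.51, against 4.45 and 4.46 on the other 60 nM arrays, the hybridisation controls averaged 9.44, against 9.93 and 9.74, and the poly-A controls 6.39, against 6.80 and 6.86. Their part in these levels was not tested. Without 60 nM replicate 2 or any other single array, TIMP3 kept a difference between 3.00 and 3.27 at 60 nM against untreated, PLAUR one between 0.81 and 1.13, CCDC80 between 4.96 and 5.14, CD44 between 0.99 and 1.09 and THBS1 between 0.44 and 0.57.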

How the data were processed

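RNA was extracted with a column kit and biotin-labelled cRNA hybridised, per the labels' protocols. The authors deposited intensities of 70523 probe sets on a linear scale. The submitters' processing notes name RMA, a method that subtracts background, normalizes and sums up probe sets, with version, annotation and build not given in the sources used here, and any further transformation is unknown. Such processing hides a shift common to most genes. Values were set on the log2 scale with no added constant. The annotation gave 1 symbol to 23781 probe sets, and the brightest of each gene was used (22465 genes). One model held the 9 arrays (limma 3.58.1 in R 4.3.3, a term per group, eBayes, Benjamini-Hochberg over all genes). The fit was tested on simulated data of 22465 genes for the 60 nM comparison. It called 67.2% of genes set to a 1.5-fold change, 89.6% at 2-fold and 97% at 4-fold, along with 10 genes left alone.

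The 9 genes and all lists were chosen with earlier results of these data known. Named were the 9, up to 3 other called genes of each list by smallest p at 60 nM against untreated, and the 3 genes of most like pattern for CCDC80, CD44 and THBS1. Sequences and start sites come from RefSeq tables of GRCh38.p14. Within groups the arrays correlated at 0.995 or higher. No clear positive pairing of the arrays by replicate number was seen, and the main fit used none. Figures were drawn with matplotlib 3.10.9. Alternatives were other scalings, an added constant of 16, other probe set rules, a filter on dim genes, other spread models, the 6 arrays compared, the replicate block, leaving out arrays, and, chosen after seeing the data, a chromosome score (the median of genes on gene-dense minus gene-poor chromosomes) and leaving out 2 arrays that stand apart.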

Additional observations from a re-analysis of the deposited data

How the results depend on the processing

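Of 540 values of the 9 genes under 21 alternatives, 510 kept their side of the threshold, or for the 3 genes with no test moved by less than 1 SD. Part of this count was fixed in advance. For those 3 genes, alternatives that change only the SE cannot move the difference. Leaving out an array of the group not compared cannot move it either. At 20 nM against untreated the 6 tested genes stood far from the threshold, so the count is no measure of robustness. TIMP3 and PLAUR kept their calls at 60 nM against untreated in all 20 alternatives that apply to them, with adjusted p up to 0.00198 and 0.0297. PLAT (0.29) lost its call after a shift by the hybridisation controls (0.30), in the fit of 6 arrays (0.29), with the replicate block (0.29) and after removal of untreated replicate 3 together with 20 nM replicate 2 (0.34), and ranged from 0.20 to 0.34 without single arrays. The SE of PLAT was 0.204 after the shift and 0.0766 without it. The cause of the other losses was not tested. PLAU ranged from 0.0759 to 0.17 without single arrays and passed without 60 nM replicate 1 (adjusted p = 0.0311), at a level below background. With 16 added before the log, which shrinks dim values by its construction, CCDC80 was at 4.63 and THBS1 at 0.40. CD44 was at 1.38 with its probe sets averaged and 1.72 from the dim one, which turned its 20 nM difference to -0.16.

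The count of genes called at 60 nM against untreated was 4752 (1783 higher, 2969 lower), 2248 after the hybridisation shift (1147 higher, 1101 lower) and 3128 with the chromosome score. At 20 nM it was 5, and 10 with quantile normalization, 16 with the shift, 8 among genes above background, 2 in the fit of 6 arrays, 0 with the replicate block, 15 with the chromosome score, 27 without that pair of arrays and 0 to 19 without single arrays. Deviations of same-numbered arrays correlated at -0.673 to 0.117, so no clear positive pairing by number was seen. Whether same-numbered arrays shared a batch was not tested. Array weights were not run, since their estimate did not converge, and PLAU had no value among genes above background. Of 18 list genes named by rule, LRP1, PLGRKT, CCN1, LAMB2 and FBN1 lost their call in 4, 7, 8, 1 and 1 of their alternatives, and of the 5 named after their values were seen ADAM10 lost it in 12, ADAMTS2 and CEMIP in 2 and MMP16 and FN1 in 1. Intensities near background limit THBS1, PLAU and PLAUR.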

Other observations

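Several genes of the wider matrix lists stood between their untreated and 60 nM levels at 20 nM, though none passed the test there. They were picked from genes named for a small p at 60 nM. Others so named, SDC4, ITGA6, EZR and FBN1 among them, overlapped untreated at 20 nM. The share of all genes with such a middle level was not computed. The comparisons of 20 nM and of 60 nM with untreated share the untreated arrays, so the values are given side by side. RECK had a log2 difference of -1.03 (SE 0.07) at 60 nM and -0.34 (SE 0.07, limma adjusted p = 0.407) at 20 nM against untreated, and LOXL1 one of -1.38 (SE 0.14) at 60 nM and -0.48 (SE 0.14, adjusted p = 0.742) at 20 nM. CCN1, which encodes a matricellular protein that binds integrins, stood apart from these with -0.53 (SE 0.13) at 60 nM and -0.63 (SE 0.13, adjusted p = 0.374) at 20 nM, and 60 nM against 20 nM gave 0.10 (SE 0.13, adjusted p = 0.693). For SMOC1 the values were 1.08 (SE 0.10) at 60 nM and 0.29 (SE 0.10, adjusted p = 0.831) at 20 nM.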
